A study of Mus musculus with 40 samples.

Results

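The cortex of 3xTg-AD mice 24 h after the third closed-head injury (3xCHI) was compared with the cortex of mice taken 24 h after the second one (2xCHI), the state the third injury met. All 4 samples of the 3xCHI 24 h group (samples 2, 23, 37 and 38) and all 3 samples of the 2xCHI 24 h group (samples 19, 21 and 29) entered the comparison, which makes 7 of the 40 samples of the series. Each sample held the RNA of the somatomotor cortex, left hemisphere, of 1 female mouse. The 3xTg-AD line carries mutant human APP and MAPT (tau) transgenes that a neuronal promoter drives, and the study kept it on a C57BL/6J background and used animals aged 2 to 4 months. Mice of both groups received 1 weight-drop injury per day through the intact skull under isoflurane, and the sham-injured mice named further on received the anesthesia alone. The study pooled the sham-injured mice over time points and numbers of anesthesia exposures. The 3xCHI samples were taken 72 h and the 2xCHI samples 48 h after the start of the protocol, so the third injury and 1 further day with 1 further anesthesia cannot be told apart. Nothing in the labels says that the samples of a group shared a litter or a batch.

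Mild head injury is known to set off a response of the glia, the non-neuronal cells of the brain. Reactive astrocytes build more of the intermediate filament proteins GFAP and vimentin and secrete acute-phase and complement proteins. Microglia, the resident immune cells, express complement receptors and lysosomal proteins as they take up debris, and oligodendrocyte precursors extend into injured tissue. The RNA of a cortical sample is a mixture of all these cells with neurons, vessels and membranes, so more cells of a type and more RNA per cell cannot be told apart in any value given here.

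The 7 samples held between 18069241 and 26425877 estimated counts, and values are given as CPM, the counts scaled to the library size after TMM normalization. Within the groups, no pair of samples was as alike as a library deposited again would be (the lowest chi-square per gene was 7.913). Slc17a7, the vesicular glutamate transporter that defines cortical excitatory neurons, lay between 1166 and 1302 CPM in all 7 samples. Sample 29 of the 2xCHI group stood apart in RNA of neighbouring regions. The 11 of 12 striatal markers that passed the filter on low counts summed to 547 CPM there against 200 to 291 CPM in the other 6 samples, and the 4 of 10 choroid plexus markers that passed it to 145 CPM against 12.1 to 25.3 CPM. Every summed level below likewise covers the tested members of its list unless stated.

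No gene passed the test for the third injury. Of 15224 features tested with edgeR's quasi-likelihood test, 0 (0%) reached a Benjamini-Hochberg adjusted p under 0.05, and the smallest adjusted p was 0.943. DESeq2 also called 0 features. At an unadjusted p under 0.05, 371 features (2.44%) were higher and 325 (2.13%) were lower after the third injury, and these 696 features together made up 4.57% of those tested. The CPM values of the groups did not overlap for 579 features higher (3.8%) and 565 features lower (3.71%) after 3xCHI. These shares of all features are the ones to set beside the counts of each list below. Leaving out 1 of the 7 samples moved the 371 to between 174 (without sample 38) and 572 (without sample 2), and the 325 to between 130 (without sample 38) and 538 (without sample 2). Every log2 fold change below is the 3xCHI 24 h group minus the 2xCHI 24 h group from that test, with its standard error (SE), and its adjusted p was 0.943 unless another is given.

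**Figure D1:**
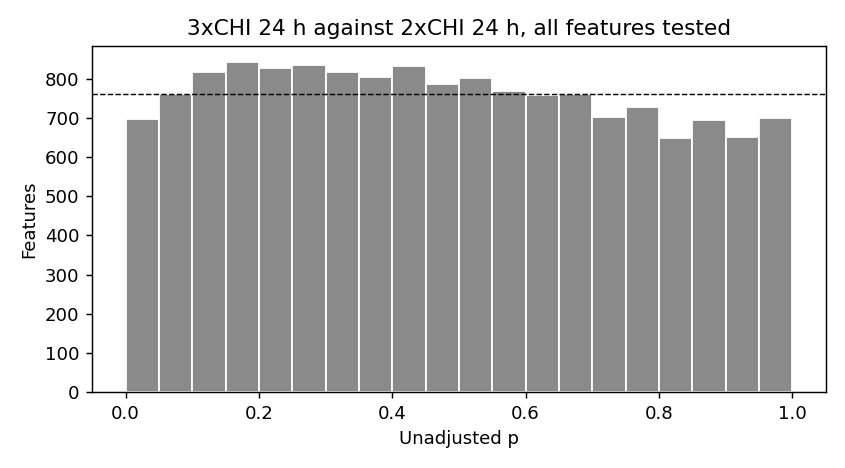
Number of features (vertical axis) in each range of unadjusted p (horizontal axis, bins of 0.05) for 3xCHI 24 h against 2xCHI 24 h, over 15224 features, with a dashed line at the mean count per bin. The bin nearest 0 held 696 features (4.57%), below the dashed line.

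Gfap, the filament protein whose level is the standard sign of astrocyte reactivity (ENSMUSG00000020932, GRCm38 chromosome 11, 102887336 to 102900912, minus strand), did not overlap between the groups. It stood at 141, 118 and 137 CPM in the 2xCHI samples 19, 21 and 29. After the third injury it stood at 487, 429, 253 and 528 CPM in samples 2, 23, 37 and 38. Sample 37 was the lowest of the 3xCHI samples and still lay above the highest 2xCHI sample, and the means were 132 ± 12.2 CPM (SD, n = 3) and 424 ± 122 CPM (SD, n = 4). The log2 fold change was 1.68 (SE 0.761; unadjusted p = 0.0345, edgeR), which did not pass the test after adjustment. That SE comes from a spread shared by all groups of the series, and it was 0.303 in the fit without the groups after the fifth injury (adjusted p = 0.0752, edgeR) and 0.215 in the fit of these 7 samples alone (adjusted p = 0.0869, edgeR). Only in the fit of samples 19 to 40 did Gfap pass (log2 fold change 1.61, SE 0.225, adjusted p = 0.0453, edgeR). All samples numbered up to 18 were dropped there, among them sample 2 and the 5xCHI samples 10 and 11 (1631 and 2417 CPM). Over its alternatives the adjusted p of Gfap ran from 0.0453 to 1.

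The pan-reactive astrocyte list, genes that many kinds of brain insult raise in astrocytes, had 13 members, of which 9 passed the filter on low counts. None of the 9 was called, 2 were higher at an unadjusted p under 0.05, and the groups did not overlap for 5, all higher after 3xCHI. Over all features tested, 2.44% were higher at that threshold and 3.8% were higher without overlap. The median log2 fold change of the 9 was 0.94, beside -0.01 over all 15224 features, and it was 0.74 without sample 38. The summed level of the 9 ran from 185 to 220 CPM in the 2xCHI samples and from 357 to 737 CPM in the 3xCHI samples.

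Serpina3n, a secreted protease inhibitor of reactive astrocytes that belongs to a cluster of similar genes, was at 7.64, 6.45 and 4.75 CPM after 2xCHI. It was at 20.0, 23.8, 10.6 and 37.2 CPM after 3xCHI (log2 fold change 1.86, SE 0.97). Its lowest 3xCHI value was again that of sample 37, and it did not reach the 2xCHI range. Vim, which encodes vimentin, was at 35.5, 31.1 and 42.4 CPM before and 82.5, 83.8, 49.7 and 109 CPM after the third injury (log2 fold change 1.16, SE 0.751). Cd44, a hyaluronan receptor, ran from 1.5 to 2.46 CPM in the 2xCHI samples and from 2.69 to 6.89 CPM in the 3xCHI samples. Osmr, the oncostatin M receptor, ran from 2.57 to 3.24 CPM and from 4.47 to 7.83 CPM. Sample 37 had the lowest 3xCHI value of Vim, Cd44 and Osmr. Serpina3n, Vim and Cd44 were named after their values were seen. Cp, which encodes the ferroxidase ceruloplasmin, had a log2 fold change of 0.66 (SE 0.304) but overlapping groups, and 0.08 without samples 37 and 38.

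**Figure D2:**
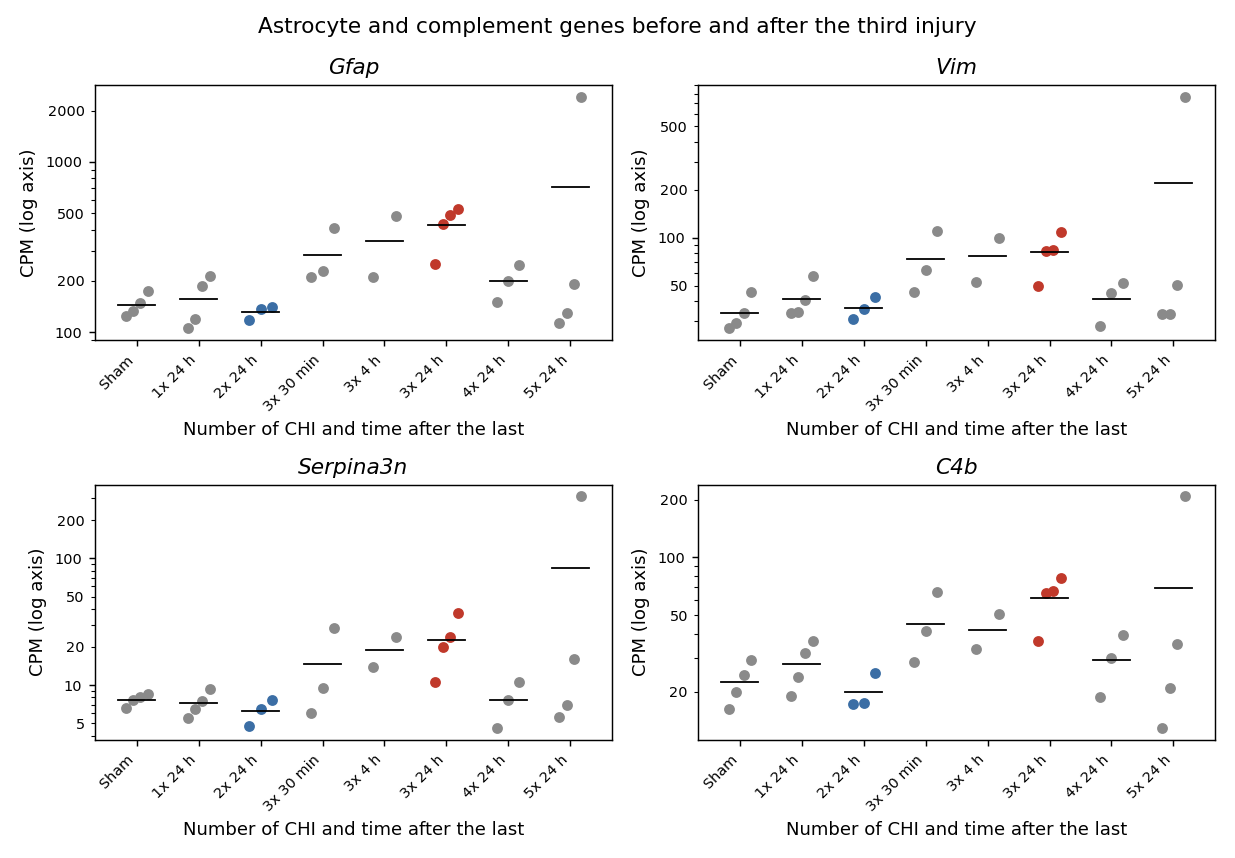
CPM (log axis) of Gfap, Vim, Serpina3n and C4b in each sample (points) of the sham-injured group and of the injury groups named on the horizontal axis, with the group mean as a line; 2xCHI 24 h is blue and 3xCHI 24 h is red. For Gfap, the 4 red points (253 to 528 CPM) lie above the 3 blue points (118 to 141 CPM), and 1 sample of 5xCHI 24 h lies at 2417 CPM.

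The lists of A1 and A2 genes, first described after inflammation and after stroke, had smaller medians. At an unadjusted p under 0.05, 2.44% of all features were higher. Of the A1 list (12 members, 11 tested), 1 gene was higher at that threshold and the median was 0.21. Of the A2 list (12 members, 8 tested), 1 was higher and the median was 0.11. The A1 gene was Serping1, the C1 inhibitor, at 3.68 to 4.49 CPM before and 5.04 to 13.0 CPM after the third injury (log2 fold change 0.91, SE 0.435). The A2 gene was Cd109, at 0.784 to 1.02 CPM and 1.54 to 3.97 CPM (log2 fold change 1.60, SE 0.655). The medians leave out untested members. Of the 4 in the A2 list, Ptx3, a secreted pentraxin, held 0, 1 and 1 counts before and 10, 12, 4 and 16 counts after the third injury, without overlap. Tgm1, a transglutaminase, held 6, 0 and 1 counts and then 42, 30, 2 and 86 counts, with sample 37 inside the 2xCHI range. Slc10a6 (2, 0 and 4 counts, then 3, 1, 1 and 0) and B3gnt5 (13, 11 and 14 counts, then 15, 6, 13 and 22) overlapped. Of the 4 untested pan-reactive members, Timp1, an inhibitor of metalloproteinases, did not overlap on the CPM scale, with 82 counts in sample 38 and 11 to 17 in the other 3xCHI samples against 4 to 11 after 2xCHI. Lcn2, Steap4 and Cxcl10 overlapped.

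The list of general astrocyte markers had a median nearer 0. Of 20 astrocyte markers, all tested, 0 reached an unadjusted p under 0.05 and the median was 0.10. Slc1a2, the main glutamate transporter of astrocytes, had a log2 fold change of 0.17 (SE 0.194), and the water channel gene Aqp4 0.44 (SE 0.234). S100b, a calcium-binding protein of astrocytes, was at 101, 146 and 143 CPM after 2xCHI and at 127, 114, 93.3 and 79.4 CPM after 3xCHI. Its groups overlapped, with a log2 fold change of -0.33 (SE 0.173).

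Gfap, S100b, Cd68 and Tmem119 encode glial proteins that the study measured in the frontal cortex and hippocampus, not in the somatomotor cortex used here. For these 4 genes an exact two-sided permutation test was run on log2(CPM + 1), where the smallest p that the design of 4 against 3 samples allows is 0.0571. Gfap and Cd68 both gave that smallest exact p (differences of 1.63 and 0.63; adjusted over the 4 tests, p = 0.114). The exact p was 0.286 for Tmem119 (difference 0.09) and 0.229 for S100b (difference -0.33), each with an adjusted p of 0.286.

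Complement genes encode a cascade of proteins that tag debris and synapses for removal. Of 19 members, 15 were tested and 0 were called. At an unadjusted p under 0.05, 5 were higher, beside 2.44% of all features. The groups did not overlap for 6, all higher after 3xCHI, beside 3.8% of all features. The 15 had a median log2 fold change of 0.35, and 14 of them were above 0. C4b, the fourth component (ENSMUSG00000073418, GRCm38 chromosome 17, 34728380 to 34743882, minus strand), was at 17.4, 17.5 and 25.2 CPM before the third injury. It was at 65.0, 78.2, 36.9 and 66.8 CPM after it, with sample 37 lowest as for Gfap and no overlap. The log2 fold change was 1.63 (SE 0.679), and without the groups after the fifth injury the adjusted p was 0.252 (edgeR). C4b shares most of its sequence with its neighbour C4a, which had a log2 fold change of 0.12 (adjusted p = 0.969, edgeR), so the split of reads between these genes is uncertain.

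Among the other complement genes were a receptor and an early protease. C3ar1, the microglial receptor of the C3a fragment, was at 2.37, 0.74 and 0.961 CPM and then at 3.96, 4.40, 3.25 and 2.99 CPM (log2 fold change 1.42, SE 0.655). C2, a protease of the classical pathway, ran from 0.740 to 1.26 CPM and from 1.32 to 3.03 CPM (log2 fold change 1.19, SE 0.466). The groups did not overlap for either gene. Of the 4 untested members, C3, the central component of the cascade, did not overlap, with 4, 3 and 4 counts before and 16, 16, 11 and 37 counts after the third injury. Cfb, C5ar1 and Itgax overlapped.

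Microglial genes were counted in a homeostatic list and in a list of genes known from disease-associated microglia. Of 18 homeostatic genes, all tested, the groups did not overlap for 5, all higher after 3xCHI, and the median was 0.26. Over all features tested, 3.8% were higher without overlap and 2.44% were higher at an unadjusted p under 0.05. Of the 18 genes, 1 was higher at that threshold. That gene was Olfml3, a secreted matrix protein of microglia, at 10.7 to 14.8 CPM and 16.2 to 29.6 CPM (log2 fold change 0.87, SE 0.377). Tmem119, a microglial membrane protein, was at 22.5, 20.2 and 21.1 CPM after 2xCHI and 23.9, 21.0, 23.3 and 22.2 CPM after 3xCHI, with a log2 fold change of 0.09 (SE 0.143; adjusted p = 0.949, edgeR).

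Of 20 disease-associated genes, 16 were tested, with a median of 0.28. At an unadjusted p under 0.05, 1 was higher, beside 2.44% of all features. The groups did not overlap for 7, all higher after 3xCHI, beside 3.8% of all features. Ccl6, a chemokine, was at 0.532, 0.958 and 0.855 CPM and then at 2.92, 1.96, 1.56 and 1.93 CPM (log2 fold change 1.40, SE 0.551). Lyz2, the lysozyme of myeloid cells, ran from 2.88 to 5.13 CPM and from 6.53 to 22.0 CPM, highest in sample 38. Its log2 fold change was 1.66, or 1.14 without sample 38. Cd68, a lysosomal glycoprotein of phagocytes, was at 4.84, 5.23 and 5.34 CPM and then at 10.7, 7.43, 7.41 and 8.78 CPM (log2 fold change 0.74, SE 0.571). All 3 genes were without overlap and none passed the test. Of the 4 untested members, Clec7a, a pattern recognition receptor, held 3, 5 and 7 counts before and 56, 50, 18 and 43 counts after, and Cst7, a cystatin, 4, 1 and 0 counts and then 19, 6, 6 and 8 counts, both without overlap. Itgax and Lgals3 overlapped. Of 12 leukocyte markers of the blood, 1 passed the filter on low counts, at 0.726 to 0.908 CPM before and 1.21 to 2.65 CPM after the third injury. All 12 together summed to 2.56, 2.61 and 2.03 CPM before and to 4.79, 4.30, 2.64 and 6.09 CPM after it, which was not tested. Of the 11 left out, Ccr2, a chemokine receptor of monocytes, held the most counts, with 103 in sample 38 and 9 to 18 in the other 6 samples. The left-out markers did not move together in the fit with no filter on low counts. There, S100a8, S100a9, Ngp, Camp, Retnlg, Ly6c2 and Ms4a1 had log2 fold changes from -2.60 to -0.27. Those of Ccr2, Cd3e, Nkg7 and Plac8 ran from 0.36 to 3.33.

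Of 31 cytokine and chemokine genes, 20 fell to the filter on low counts, and of the 11 tested 0 were higher and 1 was lower at an unadjusted p under 0.05. The lower gene was Il12a, a subunit of interleukin 12, at 3.70 to 4.22 CPM before and 1.73 to 2.64 CPM after (log2 fold change -0.83, SE 0.377). Cxcl16, a chemokine of microglia and endothelium, ran from 0.828 to 1.02 CPM and from 1.69 to 2.84 CPM (log2 fold change 1.25, SE 0.615). The 20 left out held few counts and were not part of the test. The CPM values of the groups did not overlap for 4 of the 17 with any count in the 7 samples, all higher after 3xCHI. Among all 12442 features that the filter left out and that had a count in these samples, 246 (1.98%) were higher and 224 (1.8%) lower without overlap. Ccl3, a chemokine of microglia and macrophages, held 0, 0 and 0 counts before and 23, 20, 12 and 15 counts after the third injury. Ccl12, a monocyte chemokine, held 0, 0 and 0 counts and then 3, 14, 8 and 12 counts. The others were Ccl4, a chemokine like Ccl3, and Lif, a cytokine of the interleukin 6 family. Il15, an interleukin, overlapped and went down, with 6, 10 and 1 counts before and 1, 1, 3 and 2 counts after the third injury. Over all lists, 67 untested members had a count in the 7 samples, of which 10 were higher and 0 lower without overlap. Untested members were named after their values were seen, and in the fit with no filter on low counts each had an adjusted p of 1 (edgeR).

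Of 23 interferon response genes, 19 were tested, 17 had log2 fold changes above 0 with a median of 0.52, and 0 reached an unadjusted p under 0.05. Their sum was 214 CPM in sample 23 and 137 to 172 CPM in the other 6 samples. Oasl2, an interferon-induced antiviral protein, was at 9.34 CPM in sample 23 and 2.18 to 4.29 CPM in the others. Parp14, an ADP-ribosyltransferase, did not overlap, at 1.92 to 3.10 CPM and 3.19 to 4.35 CPM.

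**Figure D3:**
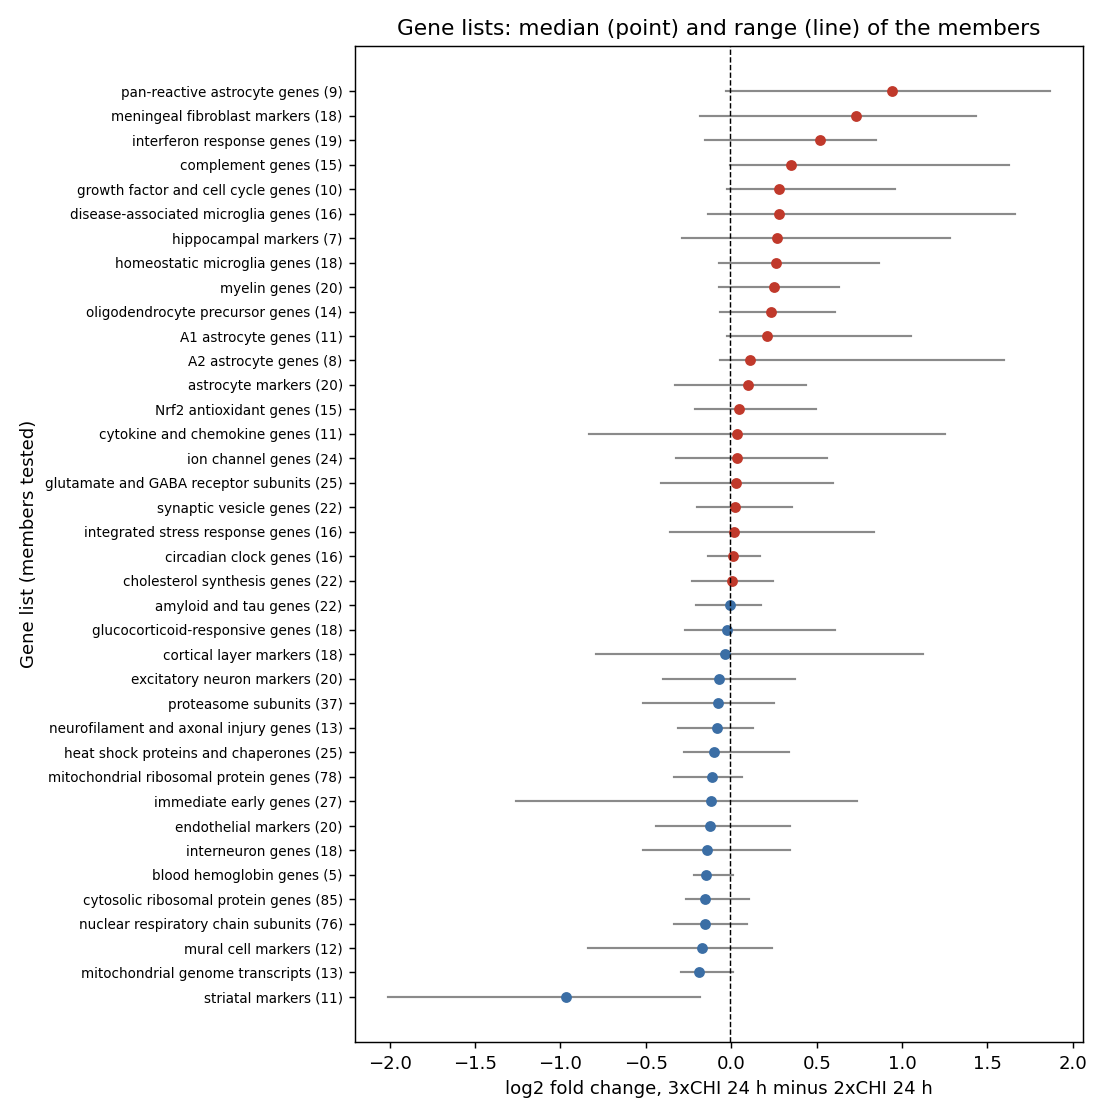
Median (point) and range (line) of the log2 fold changes of the tested members of 38 gene lists with at least 5 of them, 3xCHI 24 h minus 2xCHI 24 h, with the number tested in parentheses and the median of all features as a dashed line. The pan-reactive astrocyte list has the highest median (0.94) and the striatal list the lowest (-0.97), and no member of any list passed the test.

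Genes of the oligodendrocyte lineage had positive medians. Of 14 genes of oligodendrocyte precursors, all tested, 4 were higher and 0 lower at an unadjusted p under 0.05, with a median of 0.23. Over all features, 2.44% were higher and 2.13% lower at that threshold. Vcan, the proteoglycan versican of the precursors' matrix, was at 13.9, 13.5 and 14.0 CPM before and 19.4, 16.2, 22.0 and 26.2 CPM after the third injury (log2 fold change 0.61, SE 0.169). Pdgfra, the growth factor receptor that defines these cells, ran from 29.5 to 37.4 CPM and from 38.0 to 55.4 CPM. Samples 37 and 38 were the highest for Vcan and Pdgfra. Gpr17, a receptor of maturing precursors, overlapped (log2 fold change 0.45, SE 0.198).

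Of 20 myelin genes, all tested, 1 was higher at an unadjusted p under 0.05, beside 2.44% of all features, and the median was 0.25. The groups did not overlap for 5, all higher after 3xCHI, beside 3.8% of all features. Myrf, the transcription factor that drives myelin genes, was at 28.1, 37.7 and 35.7 CPM before and 50.8, 61.4, 40.1 and 53.9 CPM after 3xCHI (log2 fold change 0.61, SE 0.195; unadjusted p = 0.00397, edgeR). Gsn, which encodes the actin-severing protein gelsolin, ran from 40.8 to 46.7 CPM and from 58.4 to 63.0 CPM. Mbp, the most abundant of the list, overlapped with a log2 fold change of 0.13 (SE 0.229; adjusted p = 0.951, edgeR). The summed list overlapped too, at 4673 to 6916 CPM and 5761 to 8135 CPM.

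The 14 higher and 14 lower genes with the smallest unadjusted p among non-overlapping genes of at least 5 CPM were then listed. Choosing them this way fixed that their groups differ, so their values are a description. The 14 higher genes had log2 fold changes from 0.277 to 1.04 and unadjusted p from 0.000751 to 0.00382. Bche, the enzyme butyrylcholinesterase (ENSMUSG00000027792, GRCm38 chromosome 3, 73635808 to 73708415, minus strand), led at 4.40, 4.09 and 5.61 CPM before and 8.91, 6.53, 10.3 and 11.4 CPM after. Its log2 fold change was 0.99 (SE 0.264). Celsr1, a cadherin of planar cell polarity, ran from 4.83 to 6.20 CPM and from 7.01 to 10.6 CPM.

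Among the same genes, Abca2, a lipid transporter abundant in oligodendrocytes, was at 200, 219 and 211 CPM before and 251, 270, 260 and 267 CPM after (log2 fold change 0.32, SE 0.0899). Igfbp5, an insulin-like growth factor binding protein, was at 146, 156 and 148 CPM and then at 233, 188, 218 and 231 CPM (log2 fold change 0.54, SE 0.161). Tfcp2l1, a transcription factor, had the largest log2 fold change of the 14 at 1.04 (SE 0.321), with 15.2 and 13.6 CPM in samples 37 and 38 and 8.58 and 8.44 CPM in samples 2 and 23. Without samples 37 and 38 it was 0.61. Sema3d, a secreted guidance cue, was at 16.3 CPM in sample 38 and 6.27 to 8.58 CPM in the other 3xCHI samples, and its log2 fold change was 0.91, or 0.53 without sample 38. Abl1, a tyrosine kinase, Sbf1, a myotubularin-related protein, Agbl4, a tubulin deglutamylase, Maml2, a Notch coactivator, Arhgef28, a guanine nucleotide exchange factor, Gpc1, a heparan sulfate proteoglycan, and the receptor gene Mrgpre had log2 fold changes from 0.28 to 0.49.

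The 14 lower genes had log2 fold changes from -0.22 to -2.14 and unadjusted p from 9.3e-05 to 0.00356. Ccdc58, which encodes a small mitochondrial protein, had the smallest p of all, at 6.05, 6.75 and 6.41 CPM before and 5.06, 4.40, 4.21 and 4.5 CPM after the third injury (log2 fold change -0.50, SE 0.111). Glcci1, a transcript that glucocorticoids are known to induce (ENSMUSG00000029638, GRCm38 chromosome 6, 8509600 to 8597548, plus strand), was at 46.2, 53.4 and 45.9 CPM and then at 32.3, 28.8, 21.5 and 25.0 CPM. Its log2 fold change was -0.85 (SE 0.206), and between -0.95 and -0.75 when any 1 of the 7 samples was left out.

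Cartpt, a neuropeptide precursor, had the largest log2 fold change of the 14 at -2.14 (SE 0.605). It was at 6.38, 6.93 and 18.4 CPM before and at 3.91, 2.65, 2.17 and 0.946 CPM after the third injury, highest in sample 29, and its log2 fold change was -1.48 without that sample. Sox18, a transcription factor of vascular endothelium, ran from 5.82 to 7.93 CPM and from 3.21 to 4.90 CPM (log2 fold change -0.76, SE 0.211). Cd302, a C-type lectin receptor, ran from 12.6 to 16.0 CPM and from 8.40 to 10.9 CPM. Fndc5, the precursor of irisin, ran from 95.8 to 107 CPM and from 66.3 to 87.5 CPM, and Tuba8, an alpha-tubulin, from 12.9 to 16.4 CPM and from 6.89 to 10.9 CPM. Reep2, a shaper of the endoplasmic reticulum, Hikeshi, a nuclear carrier of heat shock protein, Fgf9, a growth factor, Tldc1, Esf1, Slc25a14, a mitochondrial carrier, and Nfyc, a subunit of the factor NF-Y, had log2 fold changes from -0.38 to -0.22.

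**Figure D4:**
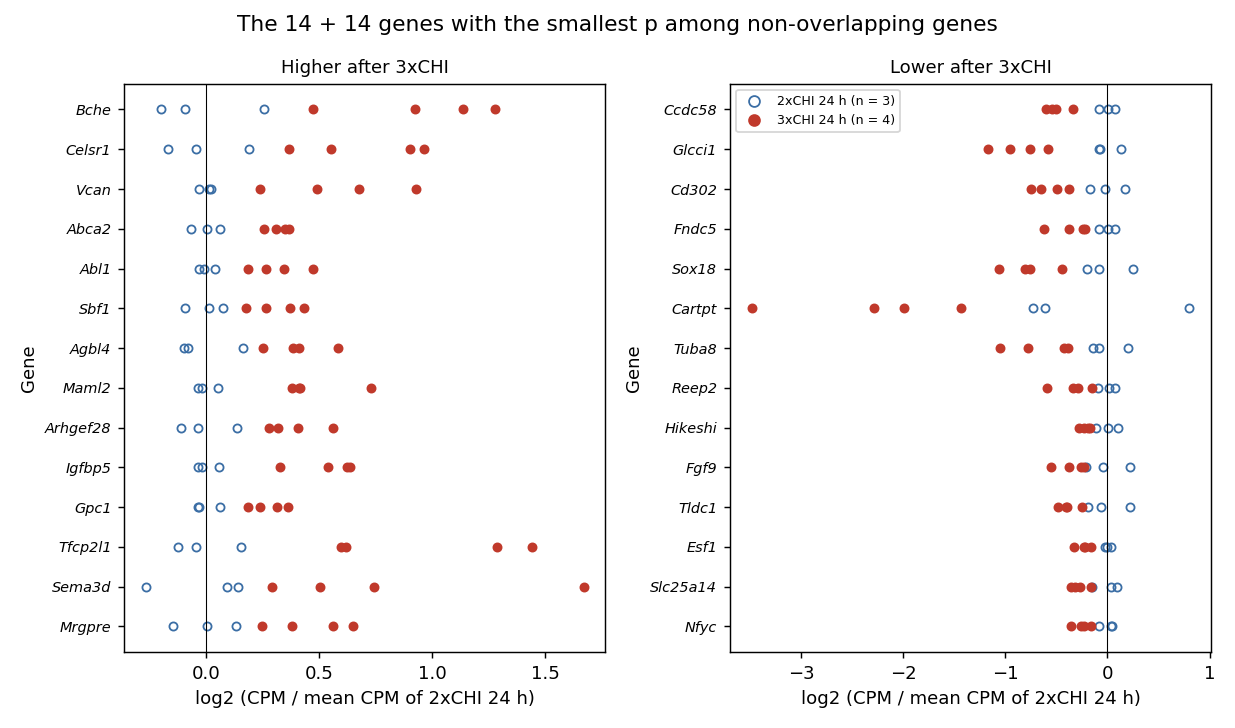
Log2 ratio of each sample's CPM to the mean CPM of 2xCHI 24 h (horizontal axis) for the 14 higher and the 14 lower genes with the smallest p among genes whose groups do not overlap; open blue circles are the 3 samples of 2xCHI 24 h and filled red circles the 4 samples of 3xCHI 24 h. Most groups are separated by little, and Cartpt spans the widest range; the genes were chosen for this separation.

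Markers of neurons were counted by class. Of 20 excitatory neuron markers, all tested, 0 were higher and 2 lower at an unadjusted p under 0.05, with a median of -0.07. Nrgn, a postsynaptic calmodulin-binding protein, was at 1550, 2209 and 2055 CPM before and 1744, 1456, 1504 and 1165 CPM after (log2 fold change -0.40, SE 0.163). Rbfox3, which encodes the neuronal nuclear antigen NeuN, ran from 343 to 419 CPM and from 284 to 372 CPM. Both overlapped. Of 18 cortical layer markers, 1 was higher and 3 were lower at an unadjusted p under 0.05, with a median of -0.04. Their groups did not overlap for 1 higher and 4 lower genes, and the 18 summed to 1190, 1209 and 1203 CPM before and 1091, 1136, 1165 and 1165 CPM after the third injury, also without overlap. Rspo1, a secreted Wnt agonist, was lower at 18.7 to 25.3 CPM and 9.62 to 17.4 CPM, with samples 37 and 38 lowest, and Deptor, an mTOR inhibitor of deep layers, had a log2 fold change of 0.31 (SE 0.12).

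Receptor subunits for glutamate and GABA (25, all tested) held 2 genes higher and 1 lower at an unadjusted p under 0.05, with a median of 0.03. Gabrb1, a GABA-A receptor subunit, was at 107, 107 and 96.4 CPM before and 117, 112, 172 and 170 CPM after the third injury (log2 fold change 0.46, SE 0.147). Its values in samples 37 and 38 stood well above those in samples 2 and 23. Of 22 synaptic vesicle genes 1 was higher, the synapsin gene Syn2, at 324 to 379 CPM and 386 to 437 CPM. Of 18 interneuron genes, 0 reached an unadjusted p under 0.05 in either direction, and Sst, the neuropeptide somatostatin, had a log2 fold change of -0.32 (SE 0.172).

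Immediate early genes, which neurons switch on within minutes of activity, were described by the same counts. Of 28 members, 27 were tested, 0 were higher and 1 was lower at an unadjusted p under 0.05, with a median of -0.12. That gene was Nr4a2, a nuclear receptor, at 21.9, 16.6 and 74.4 CPM before and 9.90, 27.0, 9.97 and 16.0 CPM after. Sample 29 held the highest value, and the log2 fold change of -1.26 was -0.29 without it. Egr1, a zinc finger transcription factor, was at 512 CPM in sample 19 and 185 to 334 CPM in the other 6 samples.

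The lists of vessel genes had medians below 0. Of 20 endothelial markers, 0 were higher and 1 lower at an unadjusted p under 0.05, with a median of -0.13, and of 12 mural cell markers 0 were higher and 1 lower, with a median of -0.17. Esam, an endothelial adhesion molecule, was at 13.5, 13.0 and 14.3 CPM before and 11.8, 10.1, 9.41 and 9.08 CPM after (log2 fold change -0.43, SE 0.162). Emcn, the endothelial sialomucin endomucin, had a log2 fold change of -0.44 (SE 0.221), and Des, the muscle filament desmin of mural cells, -0.69 (SE 0.296). The summed endothelial markers overlapped, at 374 to 478 CPM and 307 to 432 CPM.

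Markers of the membranes over the cortex and of regions beside it were counted next, and none passed the test. Of 18 markers of meningeal fibroblasts, 6 were higher and 0 lower at an unadjusted p under 0.05, with a median of 0.73. Over all features, 2.44% were higher and 2.13% lower at that threshold. Slc47a1, a transporter of these cells, was at 2.18, 1.52 and 1.5 CPM before and 5.50, 1.91, 3.55 and 7.68 CPM after the third injury. Bgn, the proteoglycan biglycan, and Islr, a secreted protein of fibroblasts, had log2 fold changes of 0.87 (SE 0.303) and 0.72 (SE 0.318). The list summed to 1001 and 1175 CPM in samples 37 and 38 and to 623 to 882 CPM in the other 5 samples, and without samples 37 and 38 its median was 0.16. Without those samples the log2 fold changes were 1.80 (SE 0.872) for Gfap and 1.85 (SE 0.778) for C4b, each with an adjusted p of 1 (edgeR).

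Of 12 striatal markers, 11 were tested, all had log2 fold changes below 0, 1 was lower at an unadjusted p under 0.05, and the median was -0.97, or -0.40 without sample 29. Drd2, the dopamine receptor of striatal neurons, was at 10.4 CPM in sample 29 and 0.643 to 2.13 CPM in the other 6. Gpr6, a receptor of the same neurons, was at 4.01 CPM there and 0.260 to 1.74 CPM in the others. Penk, the enkephalin precursor, was at 79.8 CPM against 27.8 to 57.3 CPM. Ttr, the transthyretin of the choroid plexus, was at 135 CPM in sample 29 and 6.37 to 20.4 CPM elsewhere. Of 10 hippocampal markers 7 were tested, with a median of 0.27, and Prox1, a transcription factor of granule cells, did not overlap at 13.2 to 15.9 CPM and 16.2 to 25.8 CPM.

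**Figure D5:**
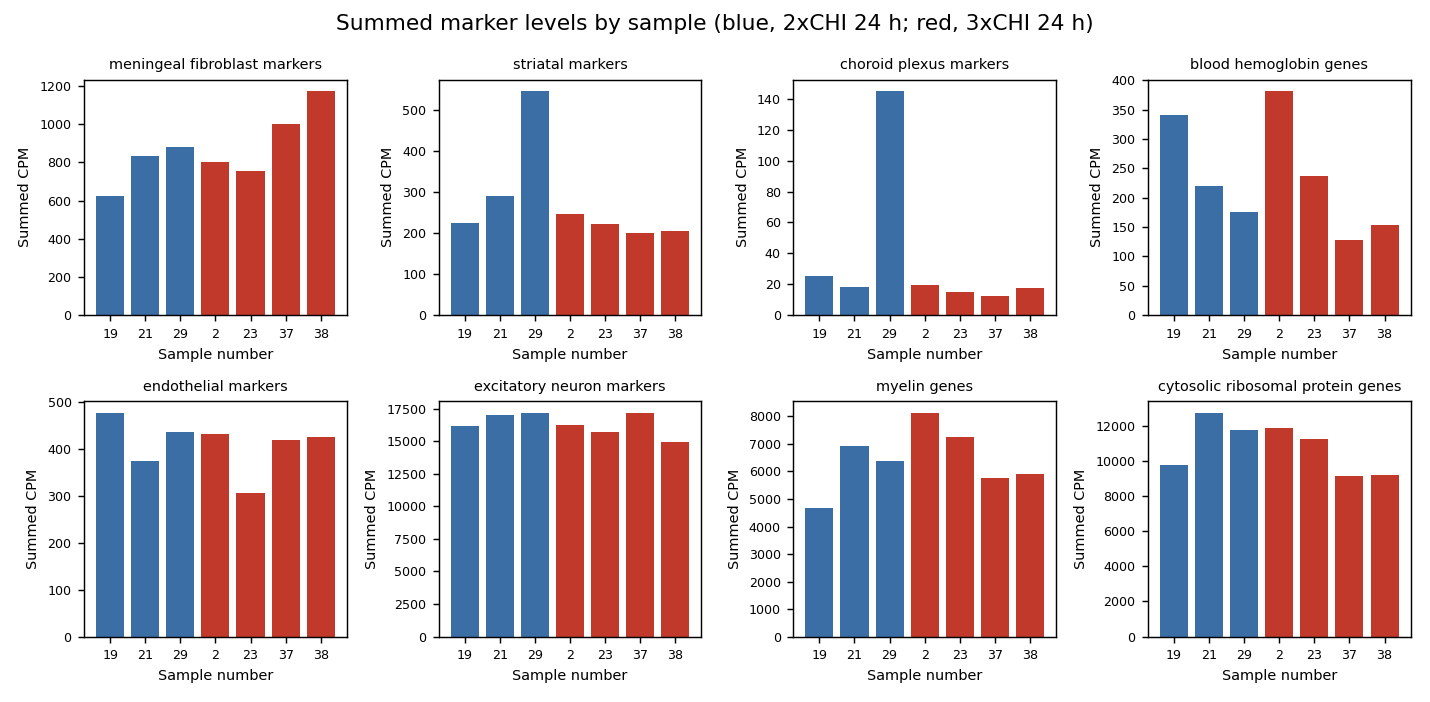
Summed CPM (bars from 0) of 8 marker lists in each of the 7 samples, named by sample number; 2xCHI 24 h is blue and 3xCHI 24 h is red. Sample 29 is the highest for striatal (547 CPM) and choroid plexus markers (145 CPM), and samples 37 and 38 are the highest for meningeal markers (1001 and 1175 CPM).

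Most genes of protein synthesis and respiration had log2 fold changes below 0, and none passed the test. Of 91 cytosolic ribosomal protein genes 85 were tested, 0 reached an unadjusted p under 0.05, and 2 of the 85 had log2 fold changes above 0, with a median of -0.15. Subunits of the respiratory chain encoded in the nucleus (76 tested, 5 above 0) had a median of -0.15, and the 13 transcripts of the mitochondrial genome (1 above 0) a median of -0.19. Of 78 mitochondrial ribosomal protein genes 1 was lower at an unadjusted p under 0.05 (median -0.11), and of 37 tested proteasome subunits 1 was lower (median -0.08). The 5 hemoglobin genes had a median of -0.15, with sums of 176 to 340 CPM before and 128 to 382 CPM after the third injury, and the 10 tested growth factor and cell cycle genes a median of 0.28 with 0 past the unadjusted threshold. Summed ribosomal protein genes overlapped between the groups. Sums were 9157 and 9174 CPM in samples 37 and 38, 9783 CPM in the 2xCHI sample 19, and 11239 to 12745 CPM in the other 4 samples.

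Several lists of stress and homeostatic genes held no member past even the unadjusted threshold. Of 18 glucocorticoid-responsive genes, 25 heat shock proteins and chaperones, 15 tested genes of the Nrf2 antioxidant response, 22 genes of cholesterol synthesis, 16 circadian clock genes, 22 genes of amyloid and tau processing, and 13 tested genes of neurofilaments and axonal injury, 0 reached an unadjusted p under 0.05. The medians of these lists lay between -0.10 and 0.05. Of the 16 tested genes of the integrated stress response, 1 was higher, Aldh1l2, a mitochondrial folate enzyme, at 9.04 CPM in sample 38 and 2.62 to 4.94 CPM in the others.

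Gfap was also measured in the other groups of the series. In sham-injured mice Gfap averaged 145 ± 21.9 CPM (SD, n = 4). It averaged 161 ± 13.8 CPM (SD, n = 3) at 30 min, 255 ± 67.7 CPM (SD, n = 3) at 4 h and 156 ± 51.8 CPM (SD, n = 4) at 24 h after 1xCHI and 132 CPM after 2xCHI. It then averaged 283 ± 112 CPM (SD, n = 3) at 30 min, 345 ± 189 CPM (SD, n = 2) at 4 h and 424 CPM at 24 h after the third injury, and 199 ± 48.3 CPM (SD, n = 3) at 24 h after the fourth. After the fifth injury it ran from 107 to 559 CPM at 30 min (n = 3) and from 123 to 1631 CPM at 4 h (n = 3). At 24 h after the fifth, 3 samples lay between 114 and 191 CPM and sample 11 at 2417 CPM. The ranges of the groups after the fifth injury thus took in all the 3xCHI 24 h values. In the comparisons of 3xCHI with 2xCHI 24 h, the log2 fold change of Gfap was 1.10 (SE 0.783) at 30 min and 1.39 (SE 0.854) at 4 h, both with an adjusted p of 1 (edgeR), and these comparisons share their 2xCHI samples with the one at 24 h.

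The means of Glcci1 went the other way. In sham-injured mice it averaged 43.9 ± 11.2 CPM (SD, n = 4), and after 2xCHI 48.5 CPM. After the third injury it averaged 45.1 CPM at 30 min, 37.5 CPM at 4 h and 26.9 CPM at 24 h, and it was 32.9 CPM at 24 h after the fourth and 37.3 CPM after the fifth. For the 14 higher genes, the 2xCHI mean was the lowest of the 6 means of sham-injured and 24 h groups in all 14. The 3xCHI mean was the highest of the 6 in 10 of them. The sham-injured mean lay between the 2xCHI and 3xCHI means in 12, and nearer to the 3xCHI than to the 2xCHI mean in 11. For the 14 lower genes, the 2xCHI mean was the highest in all 14 and the 3xCHI mean the lowest in 12. The sham-injured mean lay between these means in 13, and nearer to the 3xCHI mean in 11. Bche, for example, averaged 8.43 CPM in sham-injured mice, 6.16 CPM at 24 h after 1xCHI, 4.70 CPM after 2xCHI and 9.29 CPM after 3xCHI. These genes were chosen for their difference between the 2xCHI and 3xCHI groups.

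The 24 h difference of the third injury was then tested against those of the fifth injury (5xCHI 24 h minus 4xCHI 24 h) and of the first (1xCHI 24 h minus sham-injured), which share no sample with it. The sham-injured group was pooled over anesthesia exposures and is labelled time 0. In edgeR, 0 of 15224 features (0%) were called for either difference of differences, with 836 and 1774 features at an unadjusted p under 0.05. Leaving out 1 sample moved the 836 to between 510 (without sample 29) and 1307 (without sample 33). The 1774 moved to between 905 (without sample 38) and 2587 (without sample 26). DESeq2 called 3 features for the third against the fifth injury, Gm32200, Plb1 and Nkain2 (adjusted p = 0.0387 for each), which were named after their values were seen, and 0 for the third against the first. The log2 difference of Gfap was -0.16 (SE 1.02) against the fifth injury and 1.58 (SE 1.00) against the first. The former rests on sample 11: without it the difference of Gfap was 2.15 (SE 0.744; adjusted p = 0.608, edgeR). Glcci1 gave -1.03 (SE 0.294; adjusted p = 0.528, edgeR) against the fifth and -0.95 (SE 0.281; adjusted p = 0.406, edgeR) against the first. Neither Gfap nor Glcci1 passed in edgeR.

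Human MAPT, the tau transgene of the line, was detected in all 7 samples, as their genotype label implies. It was at 22.5, 20.8 and 25.5 CPM before and 23.4, 35.0, 22.4 and 22.8 CPM after the third injury (log2 fold change 0.17, SE 0.487; adjusted p = 0.963, edgeR). Mouse Mapt had a log2 fold change of -0.03 (SE 0.062; adjusted p = 0.951, edgeR), and reads that fit both genes may be split between them. Human APP received 3 estimated counts over all 40 samples, so that feature does not check the genotype.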

How the data were processed

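Bulk RNA-seq of 40 samples was used, without sample 30, which the study left out, so that 39 samples in 12 groups were fitted. The authors deposited estimated counts per gene for 55539 features, made by a sequencing company. The values are neither normalized nor filtered, and 4.46% of them are not whole. The submitters' processing notes name mm10; the aligner is not given in the sources used here. Gene IDs matched a GRCm38 annotation for 99.85% of the mouse features, which gave symbols and coordinates.

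Counts were rounded. A feature was kept if at most 4 samples had under 10 deposited counts, which left 15224. The test was edgeR 4.0.16 (TMM, quasi-likelihood) in R 4.3.3 over all groups, with Benjamini-Hochberg adjustment and a threshold of 0.05. DESeq2 1.42.0, sva 3.50.0 and the other alternatives are given at the end. CPM and exact tests used TMM-scaled counts. The fits were tested on simulated data. Since nothing says that samples are independent beyond their labels, p-values measure the spread between these samples. No column of the authors' own comparisons was used.

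The members and the 41 gene lists, written from memory, were chosen with earlier results of these data known. Genes named were the 14 per direction described above, of each list the 3 members of smallest p and the most abundant one, Gfap, S100b, Cd68, Tmem119 and the human transgenes; results for some of these genes are not reported here. C4a, Slc17a7 and Mapt were added as checks, and genes named for their values are marked as such.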

Additional observations from a re-analysis of the deposited data

Results flagged for a closer look

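Within the 4 samples of 3xCHI 24 h, Dixon's test was run on the CPM of 79 named genes and the summed CPM of 41 lists, and 4 of these 120 sets had a sample far from the others, where chance alone gives about 6. Maml2 was at 11.8 CPM in sample 38 and at 9.28 to 9.52 CPM in the other 3. Human MAPT was at 35.0 CPM in sample 23 and at 22.4 to 23.4 CPM in the others. The endothelial markers summed to 307 CPM in sample 23 and to 419 to 432 CPM in the others. The transcripts of the mitochondrial genome summed to 62202 CPM in sample 2 and to 50197 to 52028 CPM in the others.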

How the results depend on the processing

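The count of 0 genes called for the third injury was 1 in the fit of the compared groups only (Fbxl17) and 1 in the fit of samples 19 to 40 (Gfap), and 0 under every other alternative run. The 371 higher genes at an unadjusted p under 0.05 became 668 with no filter on low counts, 765 with the compared groups only, 1413 with samples 19 to 40, 743 with 1 surrogate variable and 703 with a covariate for the sample number (up to 18, or from 19). The 325 lower genes became 1168 with samples 19 to 40, 681 with the surrogate variable and 747 with the covariate. Leaving out 1 sample gave 174 (without sample 38) to 572 (without sample 2) higher and 130 (without sample 38) to 538 (without sample 2) lower genes; the higher count was 220 without sample 29, and the lower count was 168 without sample 37, 172 without sample 29, 207 without sample 21 and 493 without sample 19. In alternatives added after the data were seen, the higher and lower counts were 592 and 401 without samples 10 and 11, 133 and 70 without samples 37 and 38, and 104 and 72 without samples 29 and 38. DESeq2 called 3 genes for the third against the fifth injury. The log2 difference of Gfap between these injuries (-0.16) was 2.33 with samples 19 to 40, 1.1 with the surrogate variable, 0.56 with the covariate and -0.52 to 2.15 with 1 sample left out (highest without sample 11), and it passed under none of these. Of the log2 fold changes, those of human MAPT (-0.023 with 1 surrogate variable; -0.0014 to 0.26 with 1 sample left out, lowest without sample 23), Mbp (-0.049 to 0.28, lowest without sample 19) and Slc1a2 (-0.031 without samples 37 and 38) changed sign. Of the median log2 fold changes of the lists, 11 values from 9 lists moved by at least their within-group SD between samples. The other 891 values did not. The cause of these shifts was not tested. No paired analysis was possible because the groups share no replicate numbers. Members of the lists left out by the filter on low counts were not tested, and genes near 1 CPM rest on few counts.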

Other observations

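Fbxl17, a subunit of a ubiquitin ligase (ENSMUSG00000023965, GRCm38 chromosome 17, 63057452 to 63500017, minus strand), was the only gene called when the 7 samples were fitted alone (log2 fold change -1.03, SE 0.0896, adjusted p = 0.0048, edgeR), and it was named after its values were seen. It was at 48.7, 44.9 and 41.7 CPM in the 2xCHI samples and 20.5, 21.7, 22.5 and 23.4 CPM in the 3xCHI samples. Over the 39 samples, 14 lay between 18.4 and 23.4 CPM and 25 between 32.7 and 56.3 CPM, with none in between. All 4 samples of 3xCHI 24 h, none of the 3 samples of 2xCHI 24 h and 1 of the 4 sham-injured samples were in the lower range. In the fit of all groups the SE was 0.337 and the adjusted p 0.943.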
